A study of Mus musculus with 20 samples.

Results

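Accessible chromatin in mouse embryonic stem cells whose only induced CTCF carried R339Q was set against that in cells carrying R342C, by comparing the 2 peak lists directly. The R339Q list held 121032 peaks and the R342C list 141104, together 262136 of the 1447820 peaks in the 10 lists of the series, and 4 of its 20 samples. Both substitutions replace an arginine, at positions 3 residues apart, and general knowledge of CTCF, not the labels, places both in zinc finger 3. A peak counted as shared when at least 1 bp overlapped a peak of the other list, and as R339Q-only or R342C-only otherwise. The list of cells with the wild-type transgene (WT, 171719 peaks) served to tell whether a differing peak is also a WT peak.

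All cells compared were E14Tg2a cells of strain 129/Ola, and each group had 2 replicates. R339Q cells carried a doxycycline-inducible Ctcf transgene with glutamine in place of the arginine, R342C cells one with cysteine, and WT cells the unchanged transgene. What they share is the treatment and the parental line: an auxin-inducible degron on the endogenous CTCF, 500 µM indole-3-acetic acid to degrade it and 1 µg/ml doxycycline to switch on the transgene, for 2 days. The design text gives 10 cell lines for 10 genotypes, 1 line each, so a difference between R339Q and R342C cells cannot be told apart from a difference between the lines. The assay was Omni-ATAC-seq, which reads open DNA by where a transposase can cut it and add adapters, on 50000 cells per reaction with about 50 M paired-end reads planned per sample. The authors made 1 list per genotype from both replicates, so R339Q and R342C could not be tested against replicate spread. No source used here says whether the replicates were separate cultures.

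CTCF reads DNA through a row of zinc fingers, small folds held by a zinc ion, and the central fingers, including finger 3, contact the core of its binding motif. Arginines in such fingers often contact guanines of the DNA directly. Bound CTCF keeps nucleosomes off its site and holds cohesin, the ring complex that extrudes chromatin loops, so its sites are among the accessible regions of embryonic stem cells together with promoters and enhancers. Peak strength below is the fold enrichment that the authors deposited for each peak, read as the MACS2 ratio of observed to expected coverage, and it was ranked within its own list.

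The promoters below show the sites at which the lists differed near gene starts, and are given by RefSeq for GRCm38.p6 from 250 bases before to 50 after the start. Itgbl1, a gene for a secreted integrin-like protein (chr14:123659890-123660189, plus strand), had a peak in R339Q only, with a further peak of both lists close by. Zfp874a, a zinc finger gene (chr13:67451575-67451874, minus strand), and Vrk1, a gene for a nuclear protein kinase (chr12:106025557-106025856, plus strand), had one in R342C only. The window shown is 1 of several tabled starts of Vrk1, and another of them had a peak in both lists. Edar, the gene of the ectodysplasin receptor of hair and tooth development (chr10:58675647-58675946, minus strand), had a peak in both lists but ranked far apart in them. The first 3 are the strongest one-list peaks over a tabled promoter where the other list skips no peak number, and Edar is the promoter with the largest rank difference between peaks matched 1 to 1. Capitals mark a loose form of the core of the CTCF motif, CC, any 3 bases, AG, any 2 bases and GGC, searched on both strands. It was chosen after the Edar sequence was seen, and 9.88% of 21263 promoters of this length hold it.
Itgbl1: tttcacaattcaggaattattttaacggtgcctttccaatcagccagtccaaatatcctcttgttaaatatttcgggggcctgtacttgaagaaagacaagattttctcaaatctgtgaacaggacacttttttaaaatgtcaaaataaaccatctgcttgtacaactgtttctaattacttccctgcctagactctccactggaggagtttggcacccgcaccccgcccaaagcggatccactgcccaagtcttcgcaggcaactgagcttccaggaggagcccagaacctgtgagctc
Zfp874a: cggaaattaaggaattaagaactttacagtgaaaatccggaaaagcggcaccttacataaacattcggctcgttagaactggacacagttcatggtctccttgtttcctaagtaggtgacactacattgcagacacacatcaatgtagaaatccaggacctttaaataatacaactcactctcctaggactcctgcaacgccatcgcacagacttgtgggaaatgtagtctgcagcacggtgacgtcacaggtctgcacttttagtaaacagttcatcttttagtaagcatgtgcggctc
Vrk1: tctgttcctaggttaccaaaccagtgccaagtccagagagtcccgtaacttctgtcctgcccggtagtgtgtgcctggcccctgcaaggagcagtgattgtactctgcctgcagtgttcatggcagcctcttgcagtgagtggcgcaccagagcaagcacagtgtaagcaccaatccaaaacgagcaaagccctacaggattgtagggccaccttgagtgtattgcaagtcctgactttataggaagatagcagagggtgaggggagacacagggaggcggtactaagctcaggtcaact
Edar: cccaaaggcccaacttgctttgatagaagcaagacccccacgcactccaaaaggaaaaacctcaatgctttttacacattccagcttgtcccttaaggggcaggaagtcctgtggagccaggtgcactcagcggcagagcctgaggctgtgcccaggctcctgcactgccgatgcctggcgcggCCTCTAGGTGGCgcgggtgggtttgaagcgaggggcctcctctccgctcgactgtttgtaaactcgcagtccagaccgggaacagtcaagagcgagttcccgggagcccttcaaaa
The Edar promoter holds the letters CCTCTAGGTGGC at chr10:58675751-58675762, inside the peak of both lists. No match stands in the windows of Itgbl1, Zfp874a and Vrk1, which says only that these letters are absent there. GC content was 45.3% for Itgbl1, 43.7% for Zfp874a, 53.7% for Vrk1 and 58.7% for Edar.

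R339Q cells shared most of their accessible sites with R342C cells, and the R342C list held many weaker sites beyond them. Of the R339Q peaks, 109220 (90.2%, exact 95% interval 90.1 to 90.4) overlapped an R342C peak, and 11812 (9.76%) were R339Q-only. Of the R342C peaks, 108549 (76.9%, 76.7 to 77.1) overlapped an R339Q peak, and 32555 (23.1%) were R342C-only, 2.76 times as many. Since most overlaps are 1 to 1, this excess largely follows from the 20072 more peaks in the R342C list. These shares are the background for every count that follows. All intervals cover counting error over peaks only. The lists had 53.2 Mb in common, which is 86.6% of the 61.4 Mb covered in R339Q and 74.4% of the 71.5 Mb covered in R342C.

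Peaks in one list only were narrow and weak. R339Q-only peaks had a median width of 239 bp and a median fold of 3.37, against 446 bp and 5.15 for R339Q peaks shared with R342C. R342C-only peaks had a median width of 255 bp and a median fold of 3.68, against 491 bp and 6.06 for shared ones. Of the R339Q-only peaks 96.5% stood below the median of their list, and of the R342C-only peaks 92.0%. The highest fold of an R339Q-only peak was 8.08 and that of an R342C-only peak 19.

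The share of one-list peaks fell steadily with strength in both genotypes. In the R339Q list it was 28.2% in the weakest 20%, then 15.8%, 4.44% and 0.364%, and 0 of 24206 in the strongest 20%, which allows a share of up to 0.0152%. In the R342C list it was 53.8% in the weakest 20%, then 40.1%, 18.5% and 2.85%, and 0.0567% (0.0324 to 0.0921) in the strongest 20%. The 16 peaks behind that last value were all WT peaks, as were 100.0% (rounded) of the shared R342C peaks of that step. Thus the strongest sites of either mutant were nearly all present in the other, and the lists parted mostly in the lower 60% of their own strength order.

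**Figure D1:**
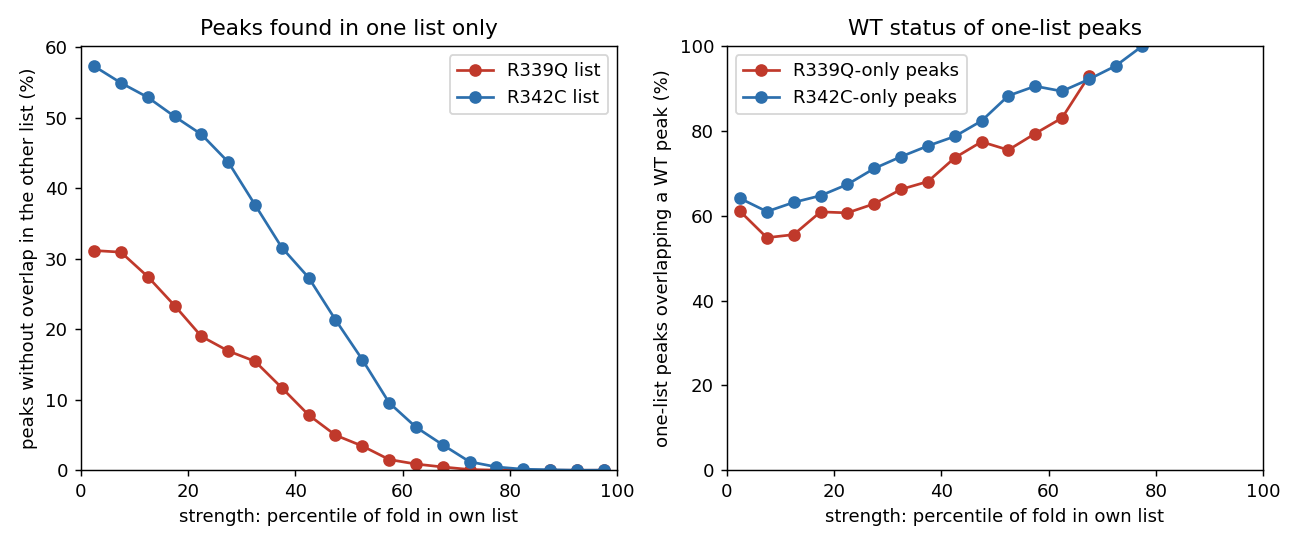
Left, percent of peaks of the R339Q list (red) and of the R342C list (blue) that overlap no peak of the other list, in steps of 5% of strength (percentile of the deposited fold in the peak's own list). Right, percent of these one-list peaks that overlap a WT peak, for steps with at least 20 such peaks. One-list peaks are common at the weak end in both lists, more so in R342C, and their WT share is higher toward the strong end.

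The lists also differed in depth as far as the values show it. The deposited fold values lie on a comb of steps, and the background coverage read from the step was 3.95 in R339Q, 3.62 in R342C and 5.96 in WT. The median fold was 4.85 in R339Q, 5.08 in R342C and 4.69 in WT, and the median peak width was 414 bp in R339Q, 412 bp in R342C and 401 bp in WT. How far depth or library quality sets the length of either list was not tested. The peak numbers inside the lists skip 1701 values in R339Q (1.39%) and 1922 in R342C (1.34%). Peaks with those numbers were not analysed here, and 140 R339Q-only peaks (1.19%) and 312 R342C-only peaks (0.958%) lie where the other list skips a number.

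With both lists limited to their 121032 strongest peaks, more than 4 in 5 peaks of each were still shared. R342C then kept peaks down to a fold of 3.29, leaving out 20072. Of the R339Q peaks 83.4% (83.2 to 83.7) overlapped one of these R342C peaks, and of the R342C peaks 82.3% (82.1 to 82.6) overlapped an R339Q peak. R339Q-only peaks numbered 20035 (16.6%) and R342C-only peaks 21373 (17.7%). Lists of equal length with mostly 1-to-1 overlap must give nearly equal counts, so nothing is read from their likeness. Of the 20035 R339Q-only peaks, 8223 (41.0%) do overlap a peak of the full R342C list.

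At this equal size the overlap of R339Q and R342C lay within the range of the other pairs of mutants. The shared base pairs over all covered base pairs, the Jaccard index, came to 0.669, ninth of the 36 pairs of mutants, whose median was 0.654. The pair at a single residue, R377C and R377H, had 0.688. K365T and S354F, which share zinc finger 4, had 0.66, and H455R and R448Q, which share zinc finger 7, had 0.618. R342C came closer to R377C (0.706), S354F (0.691) and R377H (0.675) than to R339Q. R339Q had its highest index with R342C and its lowest with R448Q (0.614). The index of R339Q was nearly as high with R377C (0.664) and S354F (0.661). Of the R339Q peaks, 83.7% overlapped S354F, 83.5% R377C and 83.4% R342C. In the other direction, R339Q held 82.3% of R342C, 81.4% of R377C and 81.4% of S354F peaks. No likeness particular to R339Q and R342C is therefore read from these values. These are descriptions of 1 list per genotype, with no replicate check.

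Most sites that separated R339Q from R342C were WT peaks. Of the R339Q-only peaks 7289 (61.7%, 60.8 to 62.6) overlapped a WT peak and 4523 (38.3%) did not. Of the R342C-only peaks 22817 (70.1%, 69.6 to 70.6) overlapped a WT peak and 9738 (29.9%) did not. Shared peaks overlapped a WT peak in 96.2% of cases on the R339Q side and 96.3% on the R342C side. In lists of equal size the WT share was 71.8% (71.1 to 72.4) of R339Q-only and 74.1% (73.5 to 74.7) of R342C-only peaks.

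The WT share grew with strength in both. From weak to strong it ran through 58.0%, 64.0%, 75.5% and 86.4% of the R339Q-only peaks over the first 4 steps of 20%. For the R342C-only peaks it ran through 63.2%, 71.7%, 83.3% and 91.3%. Shared peaks rose too, through 89.4%, 92.9%, 97.0% and 99.4% in R339Q and through 87.2%, 92.2%, 96.3% and 99.2% in R342C. A rise with strength is therefore not particular to one-list peaks. At each of these steps the R342C-only value was higher than the R339Q-only value. The steps come from lists of unequal length, so nothing is read from that contrast.

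Most sites in the R339Q list or the R342C list only were also present in at least 1 of the other 7 mutant lists. Of the R339Q-only peaks 1372 (11.6%) overlapped no peak of those 7 lists, and of the R342C-only peaks 3065 (9.41%). At the other end, 945 R339Q-only peaks (8.0%) were present in all 7, of which 907 are WT peaks. The same held for 4073 R342C-only peaks (12.5%), of which 3989 are WT peaks. The 907 are WT peaks missing from R342C alone among the mutants, and the 3989 are WT peaks missing from R339Q alone. The R339Q list, with 121032 peaks, is the shortest of the 9 mutant lists, and a shorter list lacks more peaks by its length alone. These counts were not repeated at equal size, so nothing is read from the contrast between them. Single lists held from 33.6% (Q418R) to 59.4% (H455R) of the R339Q-only peaks and from 43.6% (Q418R) to 62.4% (R377C) of the R342C-only peaks. The other lists were used at full length, which differs between them, and the same shares were not computed for shared peaks. No likeness between mutants is therefore read from these values.

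**Figure D2:**
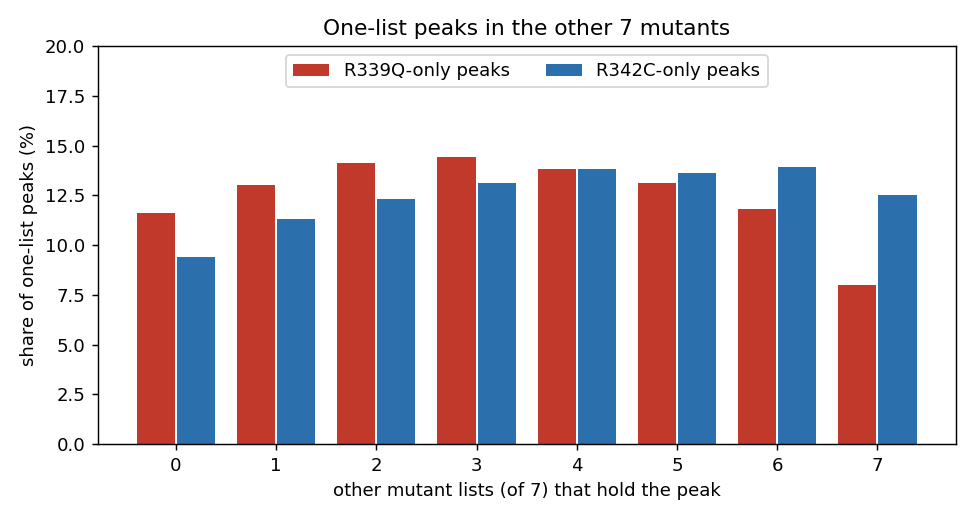
Percent of R339Q-only peaks (red) and of R342C-only peaks (blue), on the vertical axis, by how many of the other 7 mutant lists hold an overlapping peak. At 0 lists the values are 11.6% of R339Q-only and 9.41% of R342C-only peaks, and at 7 lists 8.0% of R339Q-only and 12.5% of R342C-only peaks.

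The strongest R339Q-only sites were modest peaks, mostly inside genes or between them, as R339Q peaks are in general. The highest lay inside Thsd7a, a gene for a thrombospondin-domain membrane protein, at chr6:12419062-12419438 with a fold of 8.08, the 79.3rd percentile of the R339Q list, and WT had a peak of fold 4.89 there. A peak inside Selp, the gene of the adhesion protein P-selectin, at chr1:164142722-164143012 had a fold of 7.07 in R339Q and 6.47 in WT. Both were present in 5 of the 7 other mutants. A peak inside Prex2, which encodes an activator of the GTPase Rac, at chr1:11024751-11025042 had a fold of 6.87 in R339Q and 5.75 in WT and was present in all 7. A peak of fold 6.87 inside Fgf12, an intracellular member of the FGF family, and peaks of fold 6.46 inside Trmt1l, 114 kb from Adgrl4 and at chr1:73783912-73784177 followed. The last lies between genes, and the nearest R342C peak was only 550 bp from it. The Trmt1l peak (chr1:151439633-151439960) had no WT counterpart.

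Some of these sites cannot be read as missing from R342C. The R342C list skips peak numbers at 3 of the 10 strongest R339Q-only peaks: an intergenic peak at chr10:54620061-54620382 (fold 7.07), another at chr17:7614662-7615160 (fold 7.07, 212 kb from Fndc1), and the shared start of Aida and Brox at chr1:183296459-183297911 (fold 6.92). Of the 10, 8 were WT peaks and 1 stood at a gene end.

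The strongest R342C-only sites reached higher folds and all 10 were WT peaks. The first stood at the start of Trmt10c, which encodes a subunit of mitochondrial RNase P, at chr16:56037373-56038066 with a fold of 19 in R342C and 16.2 in WT. The R339Q list skips 2 peak numbers at that place, so its absence from R339Q cannot be read from the rows at hand. At the other 9 no number is skipped. A peak inside Ppp1r32, a gene for a protein phosphatase subunit, at chr19:10486280-10486759 had a fold of 11.5 in R342C and 10.2 in WT. One inside Insc, an adaptor gene of spindle orientation, at chr7:114817042-114817891 had a fold of 11.0 in R342C and 10.3 in WT. Both were present in all 7 other mutants, so R339Q was the single list without them.

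The same was true of peaks inside Cacna2d2, a calcium channel subunit gene (chr9:107514540-107514919, fold 10.2 in R342C and 8.85 in WT), and Pkig, the gene of a protein kinase A inhibitor (chr2:163696675-163697073, 9.52 in R342C and 11.2 in WT). It was true of a peak inside Adamtsl1, an extracellular matrix gene (chr4:85801845-85802142, 9.52 in R342C and 11.9 in WT), and of one 14.3 kb from Cdca4 (chr12:112843867-112844151, 9.56 in R342C and 8.98 in WT). The remaining intergenic peaks were present in 5 or 6 of the 7 other mutants. One lay 68.1 kb from Smarcad1, a chromatin remodeller gene, with a fold of 11.0 in R342C and 6.47 in WT. One lay 5.37 kb from Kif23, a cytokinesis kinesin gene, with 10.6 in R342C and 4.02 in WT. One lay 114 kb from Bcl2l11, which encodes the death-promoting protein BIM, with 10.4 in R342C and 10.1 in WT, and there the nearest R339Q peak ended only 371 bp away.

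Where both mutants had a site, they ranked it alike in most cases. Across 98584 overlapping pairs from the equal-size lists, the Spearman rank correlation was 0.877, a description over peaks that are not independent. The same 20% class held both peaks of 57.2% of the pairs, and 93.5% were at most 1 class apart. The median difference in rank was 7.17% of the list and the 95th percentile 31.3%. Among the pairs, 6046 had an R339Q peak in the strongest 5% of its list. In 4813 of them (79.6%) the R342C peak was also in the strongest 5% of its list. The share was likewise 79.6% when counted from the R342C side. At gene ends 59.6% of 15104 pairs ranked higher in R339Q, in gene bodies 51.6% and between genes 53.6%. The median difference, R339Q rank minus R342C rank, was small at each location. It was -0.808% of the list at gene ends, -0.387% in gene bodies and -0.82% between genes.

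Large shifts in rank were rare and went both ways. Of the 10 largest, 8 came from a wide peak in one list that the other list called as 2, so pairs matched 1 to 1 were used, a choice made after seeing the data. Of 94440 such pairs, 188 ranked higher in R339Q by more than 50% of the list and 151 ranked higher in R342C by as much.

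The largest shift toward R342C was at the Edar promoter printed above. R339Q had a peak of 200 bp with a fold of 3.23 there (rank 103841), R342C one of 506 bp with a fold of 12.2 (rank 13335), and WT one with a fold of 13.9. All 7 other mutants had the peak, between the 36.5th and the 95.4th percentile of their lists. Other sites ranked higher in R342C lay inside Kif1b, a motor protein gene (fold 2.83 in R339Q, 8.76 in R342C and 7.26 in WT). Inside Rpn2, a gene of protein glycosylation, the folds were 2.78 in R339Q, 8.42 in R342C and 12.5 in WT. Inside Slc9b1, a gene of a sodium and proton exchanger family, they were 2.63 in R339Q, 8.0 in R342C and 6.9 in WT. At an intergenic peak at chr4:131364846-131365125 they were 3.03 in R339Q, 9.07 in R342C and 8.46 in WT. In all 5 the R339Q peak was the narrower of the pair.

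Of the 5 largest shifts toward R339Q, 4 were between genes. At chr13:112136560-112137130, 151 kb from Ankrd55, the fold was 8.28 in R339Q (rank 23824), 3.46 in R342C (rank 116215) and 4.17 in WT. Inside Lrrc37a at chr11:103485038-103485451 it was 8.48 in R339Q, 3.68 in R342C and 3.31 in WT. At 55.7 kb from Serpinb3b, a serpin protease inhibitor gene, it was 7.47 in R339Q, 3.46 in R342C and 5.32 in WT. At chr8:52900091-52900464, far from any gene and nearest to Aga, it was 7.07 in R339Q, 3.46 in R342C and 7.62 in WT. Folds depend on each list's background, so only the ranks carry the comparison.

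**Figure D3:**
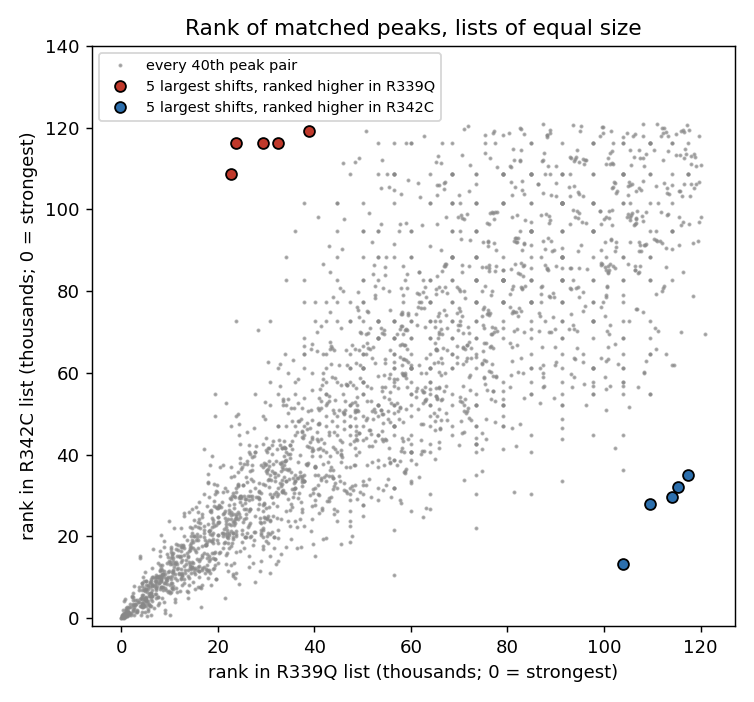
Rank of the R339Q peak (horizontal) against rank of the overlapping R342C peak (vertical) in the lists of 121032 peaks, with the strongest at the origin. Grey points are every 40th pair, and the 5 largest 1-to-1 shifts in each direction are red (higher in R339Q) and blue (higher in R342C). The grey cloud is narrow at the strong end and widens toward the weak end, and the coloured points stand apart from it.

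Gene ends differed least between R339Q and R342C. A gene end is here the window of 1 kb around the annotated start of a protein-coding gene, or around both annotated ends where the promoter table gives no strand. Of 16933 R339Q peaks at gene ends, 504 (2.98%, 2.73 to 3.24) were R339Q-only, against 11.3% (11.0 to 11.5) of those in gene bodies and 10.4% (10.1 to 10.7) of intergenic ones. Of 17718 R342C peaks at gene ends, 1401 (7.91%, 7.51 to 8.31) were R342C-only, against 27.0% (26.6 to 27.3) in gene bodies and 23.2% (22.8 to 23.5) between genes. Put the other way, gene ends made up 4.27% of R339Q-only and 15.0% of shared R339Q peaks, and 4.30% of R342C-only and 15.0% of shared R342C peaks.

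The gap was present among weak peaks too. In the weakest 20% of the R339Q list, 18.9% of gene-end peaks were R339Q-only, against 29.0% in gene bodies and 29.2% between genes. In the weakest 20% of the R342C list, 40.3% of gene-end peaks were R342C-only, against 56.5% in gene bodies and 52.8% between genes. In the second weakest 20% 6.22% of gene-end, 15.6% of gene-body and 17.4% of intergenic peaks were R339Q-only, and 22.0%, 41.7% and 40.6% were R342C-only in that order of location.

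**Figure D4:**
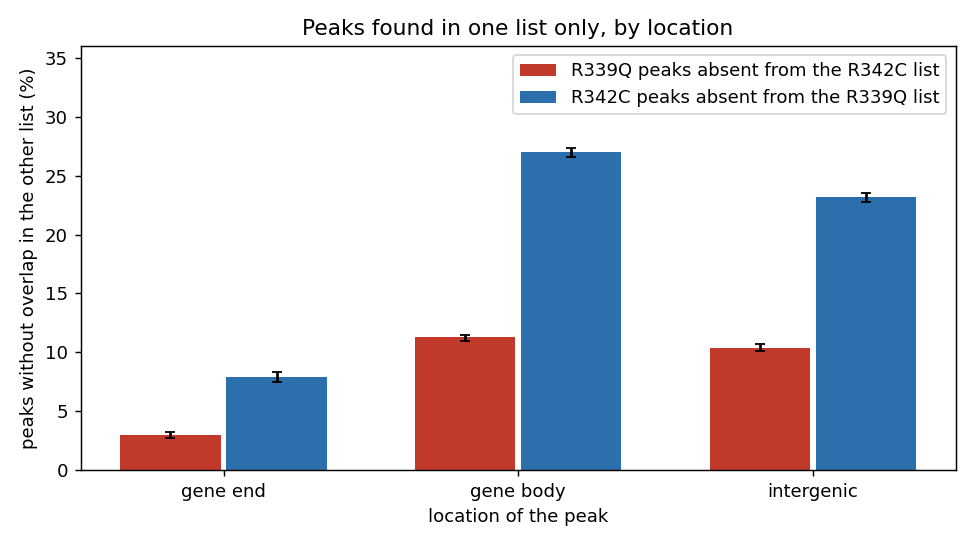
Percent of R339Q peaks absent from the R342C list (red) and of R342C peaks absent from the R339Q list (blue), by location of the peak. Bars show exact 95% intervals over peaks, which cover counting error only. In both lists the gene-end bar is the lowest (2.98% in R339Q and 7.91% in R342C).

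Counted by gene, both lists had a gene-end peak at 14559 of 21887 protein-coding genes. In R339Q only there were 118, which is 0.804% of the 14677 genes with one in R339Q, and in R342C only 437, which is 2.91% of the 14996 with one in R342C. At 14 of the 118 and 33 of the 437 genes the peak overlaps one of the other list outside the window. The peaks were mostly weak, with median percentiles of 17.6 in R339Q and 22.9 in R342C, and 59.3% of the R339Q-only and 71.6% of the R342C-only genes had a WT peak there. The order turned round in lists of equal size, with 358 genes in R339Q only and 291 in R342C only.

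Among the strongest of these genes, the ones in R339Q only where R342C skips no number were Olfr1260, an olfactory receptor gene (fold 5.86, no WT peak), Slc26a7, an anion exchanger gene (5.66 in R339Q and 7.04 in WT), and Rag2, a recombinase gene of lymphocytes (4.76 in R339Q and 3.85 in WT). Aida and Brox, and the antiviral deaminase gene Apobec3 (6.17), lie where R342C skips 2 and 7 numbers. In R342C only, after Trmt10c, were Zfp874a (8.0 in R342C and 7.62 in WT), Cntnap4, a neuronal adhesion gene (6.7 in R342C and 6.18 in WT), the olfactory receptor gene Olfr376 (6.7 in R342C and 5.46 in WT) and Lrrn3, a neuronal membrane protein gene (6.49 in R342C and 7.9 in WT). Each of these last 4 genes had the peak in all 7 other mutants. Vrk1 and Itgbl1, printed above, are not among these genes, since the other list also has a gene-end peak at each. The Vrk1 peak shown (chr12:106025405-106025826) had a fold of 6.62 in R342C, and the Itgbl1 peak (chr14:123660099-123660395) one of 5.45 in R339Q.

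Genes of pluripotency and of the signalling pathways that act on it mostly had gene-end peaks in both lists, as did most genes with such a peak. Across 19 gene lists, 263 genes had a gene-end peak in both, 1 in R339Q only (0.379%) and 10 in R342C only (3.66%), against 0.804% and 2.91% over all genes. None of these one-list genes was in a pluripotency or signalling list. With one-list genes this rare over all genes, nothing particular to those lists is read from it. Of 20 naive pluripotency genes 19 had a peak in both lists, with median percentiles of 66.0 in R339Q and 63.9 in R342C. The pluripotency factor genes Pou5f1 (fold 3.97 in R339Q, 4.99 in R342C and 5.04 in WT), Nanog (4.2 in R339Q, 4.0 in R342C and 4.28 in WT) and Sox2 (7.22 in R339Q, 7.82 in R342C and 6.29 in WT) were among them. Esrrb, an orphan nuclear receptor gene of naive cells, stood at 8.77 in R339Q (82.7th percentile), 13.4 in R342C (92.9th) and 11.5 in WT. All 9 formative, 12 LIF and STAT3, 22 Wnt and 19 Nodal and BMP genes had a peak in both. Nodal itself, a ligand of the TGF-beta family, had a fold of 4.02 in R339Q, 3.22 in R342C and 4.4 in WT. Percentiles from lists of unequal length show no change by themselves.

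The listed genes that differed had peaks of low to middle strength. Of 9 trophoblast genes, 6 had a peak in both and 3 in R342C only: the transcription factor genes Elf5 (fold 3.68) and Tfap2c (3.46) and the keratin gene Krt7 (3.76). At 3 genes with weak peaks, against 2.91% over all genes and from a longer list, nothing particular to trophoblast genes is read from this. Of 7 fibroblast markers, 4 had a peak in both, among them the collagen gene Col1a1 (6.22 in R339Q, 10.1 in R342C and 10.4 in WT), and Prrx1 in R342C only (4.51), where an R339Q peak overlaps it outside the window. Col3a1 and Dcn, the other 2 fibroblast markers, had none in either list. Of 8 primitive endoderm genes 5 had a peak in both lists, and Gata4, Sox17 and Pdgfra had none in either. The naive pluripotency list stands for the cells named by the labels, and the trophoblast, fibroblast and primitive endoderm lists for other cells. Whether other cells contribute was not tested. For the 7 matched markers of the two-cell-like state, neither list held a gene-end peak. Of 39 Hox genes, 31 had a peak in both, Hoxc12 in R339Q only (3.78) and Hoxa3 in R342C only (5.06). Both of these peaks overlap one of the other list outside the window.

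The clustered protocadherins, cell surface proteins of neurons whose promoters are known CTCF sites, held the most such genes by count but not by share of the list. Of 57 matched genes on chromosome 18, 25 had a peak in both lists and 4 in R342C only, and none in R339Q only. The 4 were Pcdhb3 (fold 5.19 in R342C and 4.02 in WT), Pcdhac1 (3.46 in R342C and 4.45 in WT), Pcdhb10 (3.46 in R342C and 3.16 in WT) and Pcdhb21 (3.03 in R342C and 3.02 in WT). At 4 genes against a background of 2.91% from a longer list, nothing particular to the family is read from this.

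Of 22 genes of CTCF and cohesin, 18 had a peak in both lists and none in one list only. Ctcf had its gene-end peak at a fold of 8.55 in R339Q (81.6th percentile), 9.81 in R342C (83.4th) and 9.38 in WT. Over the whole gene there were 3 peaks in R339Q, 8 in R342C and 10 in WT. The R339Q list is the shorter one, and over other genes of this group R342C had more, as many or fewer peaks than R339Q. No change at Ctcf is read from these counts. Peaks of the endogenous gene and of the transgene cannot be told apart. The cohesin subunit gene Stag2 stood at 8.53 in R339Q, 10.4 in R342C and 8.17 in WT, and the remodeller ATPase gene Smarca4 at 9.72 in R339Q, 11.9 in R342C and 10.5 in WT. All 18 genes of DNA methylation and Polycomb had a peak in both. Genes with no peak in the window of either list are not taken as closed, since a peak can lie further inside the gene or carry a skipped number.

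Promoters with a peak in one list only held fewer CpG than those with a peak in both, in groups not matched for peak strength. Whether this belongs to weak promoter peaks in general was not tested. The median number of CpG dinucleotides in the 300 bases was 8 for the 200 promoters with a peak in R339Q only and 8 for the 488 in R342C only. It was 21 for the 12664 with a peak in both, 3 for the 7911 with neither and 13 for all promoters. Median GC content was 54.3% for R339Q-only, 55.5% for R342C-only, 61.7% for both and 46.7% for neither. The stricter CTCF core, CCA, any 2 bases, AG, any 2 bases and GGC, was present in 2.5% (exact 95% interval 0.817 to 5.74) of the promoters with an R339Q-only peak and 3.69% (2.2 to 5.77) of those with an R342C-only peak. It was present in 2.72% of those with both and 2.34% of all promoters. The looser core, which also takes in every match of the stricter one, gave 8.0% (4.64 to 12.7) for R339Q-only, 10.5% (7.88 to 13.5) for R342C-only and 13.3% for both. The intervals of the R339Q-only and the R342C-only promoters overlap for both motifs.

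The difference between R339Q and R342C was spread evenly over the genome, with chromosome 6 somewhat apart. The R339Q-only share ran from 8.44% on chromosome X to 10.7% on chromosome 1, and was 11.6% on chromosome 6. The R342C-only share ran from 22.3% on chromosome 11 to 24.8% on chromosome 9, and was 20.6% on chromosome 6. Chromosome 6 held 6.97% of R339Q peaks, 6.62% of R342C peaks and 6.85% of WT peaks. Chromosome Y had 7 peaks in R339Q and 9 in R342C and is left out of these ranges. Over 485 bins of 5 Mb, the log2 ratio of R339Q to R342C peak shares lay between -0.11 and 0.13 for the middle 90%. It passed 0.2 in size in 10 bins, 6 higher and 4 lower in R339Q, with no run of 3 bins. The largest value, 0.53, came from chromosome 6 between 75 and 80 Mb. That bin held 62 peaks in R339Q, 50 in R342C, 69 in WT and 41 to 62 in the other mutants.

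**Figure D5:**
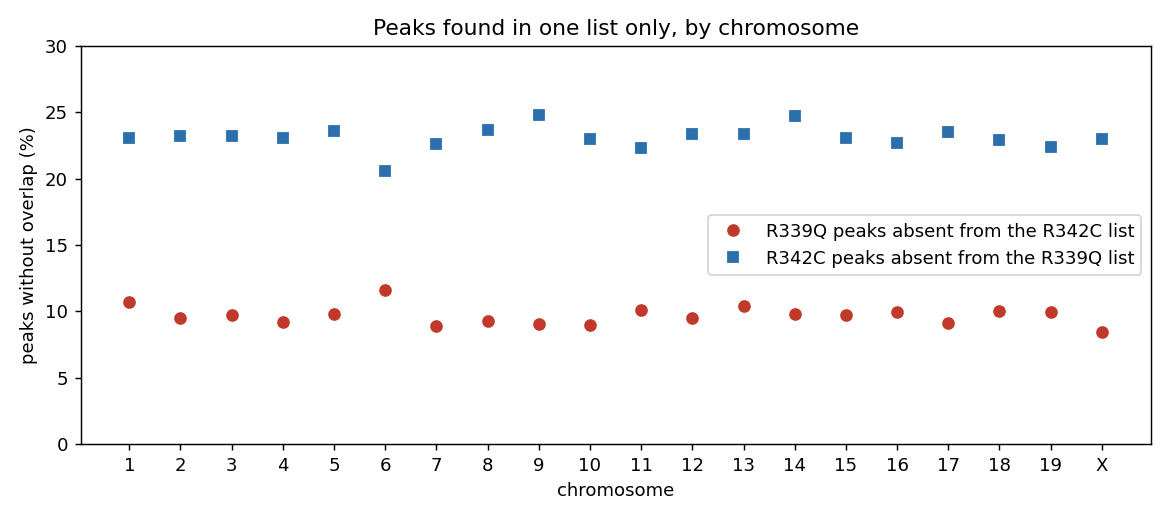
Percent of R339Q peaks absent from the R342C list (red circles) and of R342C peaks absent from the R339Q list (blue squares), by chromosome, with chromosome Y left out. On chromosome 6 the R339Q value is the highest of its row (11.6%) and the R342C value the lowest (20.6%).

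Runs of neighbouring differing sites were short. Among the stronger 60% of R339Q peaks, the longest run of R339Q-only peaks was 4, at chr1:126711470-126916782, a stretch that reaches from inside Nckap5 past its annotated end. That stretch held 7 peaks in R339Q, 0 in R342C and 2 in WT, and 6 to 10 in the other mutants. The R342C list skips no number at these peaks. In the R342C list the longest runs were also 4 peaks, and there were 5 of them. One lay within the ubiquitin ligase gene Trip12 at chr1:84753004-84787558, with 3 peaks in R339Q, 7 in R342C, 11 in WT and 7 to 9 in the other mutants. One lay in Ptprm, a receptor tyrosine phosphatase gene, at chr17:67196597-67290065, with 0 peaks in R339Q, 4 in R342C, 4 in WT and 3 to 5 in the others. One lay 227 kb from Tbl1xr1, a corepressor gene, at chr3:21798225-21850147, with 0 in R339Q, 4 in R342C, 5 in WT and 1 to 4 in the others. In the Nckap5 stretch R342C was the list without peaks, and in the Ptprm stretch R339Q was.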

How the data were processed

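Omni-ATAC-seq was measured in 2 samples each of R339Q, R342C and WT cells. Per the submitters' processing notes, Trim Galore, Bowtie2, MACS2 and deepTools were used with the build mm10. No source used here gives versions, the treatment of duplicates or the peak threshold. For each genotype the authors deposited 1 list of peaks called from both replicates, as the 2 library codes in its peak names show. The fold enrichment values, a ratio that the authors' peak caller MACS2 computed before they were deposited, have no header and were recognised by their range and steps. They served only for ranks and descriptions inside a list.

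Read totals are unknown. Background coverage was computed as 1 over the step of the fold values, minus 1 (28.9% of values in R339Q, 32.1% in R342C and 33.1% in WT lay on the step within 1.1e-05). Overlap of at least 1 bp, ranks, gene ends and runs were computed with Python 3.11.15, pandas 2.3.3 and scipy 1.17.1, and the overlap and interval functions were tested on simulated lists. Intervals are exact binomial (Clopper-Pearson) 95% intervals. Genes and the promoters of 300 bases came from RefSeq tables of GRCm38.p6, which shares its chromosomes with mm10, and 79.9% of 21887 protein-coding genes had a strand. Coordinates are 1-based. Named were the 10 strongest one-list peaks per list, the 5 strongest at genes with no gene-end peak in the other list, the 5 largest rank shifts in each direction, the 3 longest runs, listed genes whose status differed, and further list members and promoters chosen after their values were seen. One of the named rank shifts is not reported here. The genotype pair, gene lists and rules were chosen with earlier results of these data known. Peak sequences and the CTCF protein were not analysed here.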

Additional observations from a re-analysis of the deposited data

How the results depend on the processing

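The share of R339Q peaks found in R342C (90.2%) became 83.4% in lists of equal size, 87.6% when at least 50% of a peak had to be covered, 92.3% with peaks up to 500 bp apart counted as shared, and 91.8% for the stronger 50% of each list. The share of R342C peaks found in R339Q (76.9%) became 82.3%, 72.3%, 80.4% and 78.7% in the same order. WT peaks among R339Q-only ones (61.7%) became 71.8%, 59.8% and 63.2% under the first 3 alternatives, and among R342C-only ones (70.1%) 74.1%, 68.4%, 72.4% and 71.1% under all 4. R339Q-only peaks in the strongest 20% (0) became 115 at 50% cover. R342C-only peaks there (16) became 429 at 50% cover, 7 at equal size and 6 for the stronger 50%. Genes with a peak in R339Q only (118) became 358 at equal size and 219 for the stronger 50%, and in R342C only (437) 291 and 729. At equal size the order of these 2 counts reversed. Leaving out one-list peaks at skipped numbers, chosen after seeing the data, gave 90.3%, 77.1%, 61.7%, 70.1%, 0 and 15 for the first 6 values. Leaving out shifted segments gave no value because no run of 3 bins was found.

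No paired analysis was possible because each genotype has 1 list made from both replicates, and leaving out a replicate was not run for the same reason. Read depth per library is unknown, and 1 line per genotype ties line and genotype together.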
